A study of Arabidopsis thaliana with 16 samples.

Results

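The autophagy machinery of Arabidopsis thaliana was followed here as 39 loci. They belong to ATG families from ATG1 to ATG18 and to ATG101, with VPS34, VPS15 and NBR1 added. They were taken from the 32833 loci of the expression table by locus identifier and not by a cut-off on values. Earlier results of these data were known when they were chosen. Transcript levels were measured by sequencing polyadenylated RNA in 16 libraries that form 8 groups of 2 replicates, which the labels call biological. Petals, whose age the labels do not give, were collected at ZT16 from 35S:CO plants, which overexpress the flowering regulator CONSTANS (CO) under the 35S promoter, from the CO null mutant co-10, and from wild type Col-0. Petals of the same 3 genotypes were collected at ZT4. Whole seedlings of 35S:CO and of Col-0 were collected at ZT16 at an age of 10 days. ZT counts hours from lights on, and all plants grew under long days on peat-based compost with light for 16 h, so that ZT16 is the time of lights off. Values are read as FPKM, fragments scaled by transcript length and library size, because they behave so although the table names no unit, and levels can then be set side by side between genes.

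Autophagy carries cytoplasm and organelles to the vacuole inside a vesicle with a double membrane. A kinase complex starts the process, a phosphatidylinositol 3-kinase complex marks the membrane, ATG9, ATG2 and the ATG18 proteins supply and organise the growing membrane, and a conjugation pathway that resembles ubiquitination attaches the small protein ATG8 to a membrane lipid. Cargo receptors such as NBR1 bind both their cargo and ATG8. In plants the pathway recycles nutrients and is known for its activity in starved and in senescing organs. By role the 39 loci comprise 7 of the initiation kinase complex, 3 of the phosphatidylinositol 3-kinase complex, 10 of membrane supply, 9 ATG8 genes, 9 of conjugation and the receptor NBR1. RefSeq gives no symbol for 7 of them, which are called here by locus: AT3G61960, AT3G53930 and AT2G37840, each a protein kinase superfamily protein, AT3G18770, an autophagy-related protein 13, AT2G44140 and AT3G59950, each a peptidase family C54 protein, and AT5G50230, a transducin/WD40 repeat-like protein.

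The promoters of 4 genes are shown because ATG7, ATG8H, ATG8E and ATG8A had the largest differences between ZT16 and ZT4 in petals, given further on. Each is the 250 bases before the annotated gene start, 5′ to 3′ on the gene's strand, from RefSeq's TAIR10.1 assembly, and lies at chr5:18614925-18615174 (plus strand), chr3:1956398-1956647 (minus strand), chr2:18624014-18624263 (plus strand) and chr4:11655312-11655561 (plus strand). Capitals mark TGACG in ATG8H, ATG8E and ATG8A, the W-box TTGACC in ATG8E and the CO-responsive element, TGTGNNATG or TGTGNNNATG, in ATG7, each on either strand.
ATG7 promoter: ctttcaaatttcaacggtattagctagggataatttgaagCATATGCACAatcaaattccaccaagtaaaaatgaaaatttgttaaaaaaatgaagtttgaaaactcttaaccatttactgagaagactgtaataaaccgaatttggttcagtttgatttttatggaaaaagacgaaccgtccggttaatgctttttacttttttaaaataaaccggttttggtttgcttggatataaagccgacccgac
ATG8H promoter: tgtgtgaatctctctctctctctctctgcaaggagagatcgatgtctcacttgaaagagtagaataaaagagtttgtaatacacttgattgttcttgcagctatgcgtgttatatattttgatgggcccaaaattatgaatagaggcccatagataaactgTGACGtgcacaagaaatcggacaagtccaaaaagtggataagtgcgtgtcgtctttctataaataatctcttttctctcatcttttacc
ATG8E promoter: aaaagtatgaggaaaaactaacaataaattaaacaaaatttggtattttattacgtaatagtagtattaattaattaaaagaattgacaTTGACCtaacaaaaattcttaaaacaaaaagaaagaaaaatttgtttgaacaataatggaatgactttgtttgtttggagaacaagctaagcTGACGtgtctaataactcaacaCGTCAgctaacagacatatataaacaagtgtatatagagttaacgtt
ATG8A promoter: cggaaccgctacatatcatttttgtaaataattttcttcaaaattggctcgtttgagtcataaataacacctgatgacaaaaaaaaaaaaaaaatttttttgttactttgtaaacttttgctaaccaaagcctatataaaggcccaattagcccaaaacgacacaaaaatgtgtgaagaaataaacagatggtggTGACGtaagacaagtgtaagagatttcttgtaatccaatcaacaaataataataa
TGACG, a motif known as a binding site of TGA bZIP factors and added to the search after these sequences had been seen, occurred in 10 of the 39 promoters, 6 of them among the 9 ATG8 genes, and in 18.58% of 27443 promoters of the same length. The CO-responsive element occurred in ATG18H, ATG7 and NBR1, and in 7.04% of all promoters. The G-box CACGTG was in 3 of the 39 promoters and 6.49% of all. The evening element AAAATATCT was in NBR1 alone among the 39, and in 2.36% of all. The W-box, TTGACC or TTGACT, was in 6 of the 39 and 28.41% of all. W-box and TGACG letters can overlap, and a match describes the letters of this window only.

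The libraries differed in depth and make-up. A depth estimated from the steps between low values was 5220000 to 22040000 reads in petal libraries and 56020000 to 63350000 in seedling libraries, with the lowest in co-10 ZT4 replicate 2. That library also had the most loci listed at 0, 18240, against 11490 in the petal library with the fewest and 7975 to 8361 in seedlings, and ATG18B, ATG18C and ATG10 are listed at 0 in no other library. Ribosomal RNA loci held 3.82% to 48.8% of summed FPKM in petals and 0.108% to 0.61% in seedlings. CO stood at 413.7 to 625.4 FPKM in 35S:CO petals, against at most 0.703 FPKM in co-10 and Col-0 petals, and at 314.8 and 296.9 FPKM in 35S:CO seedlings, against 1.91 and 2.10 FPKM in Col-0 seedlings, as labelled. The 4 petal identity genes summed to 881.5 to 2253 FPKM in petals and 7.07 to 19.8 FPKM in seedlings. Marker genes of other tissues were also read in petals, all 4 pollen markers at a sum of 577 to 3318 FPKM in every petal library, against 13.5 to 35.1 FPKM in seedlings, where 3 of the 4 were at 0. In bulk tissue, fewer cells of a type and less RNA per cell cannot be told apart.

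Of the 39 genes, 37 or 38 averaged at least 1 FPKM in each group; ATG18E, one of the ATG18 family, was listed at 0 in all 12 petal libraries and at most 0.164 FPKM in seedlings. The summed level of the 39 genes was lowest at 1841 and highest at 3232 FPKM in ZT16 petals, with 854.5 and 1238 FPKM as the bounds in ZT4 petals and 513.7 and 564.6 FPKM in seedlings, so these 3 ranges did not overlap. ATG8A was the highest member in all 3 genotypes of petals at ZT16, with 387 FPKM in 35S:CO, 345 FPKM in co-10 and 489 FPKM in Col-0 on average, and ATG8E came next with 331, 311 and 448 FPKM. In seedlings the receptor NBR1 was the highest, with 92.4 FPKM in 35S:CO and 83.5 FPKM in Col-0.

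**Figure D1:**
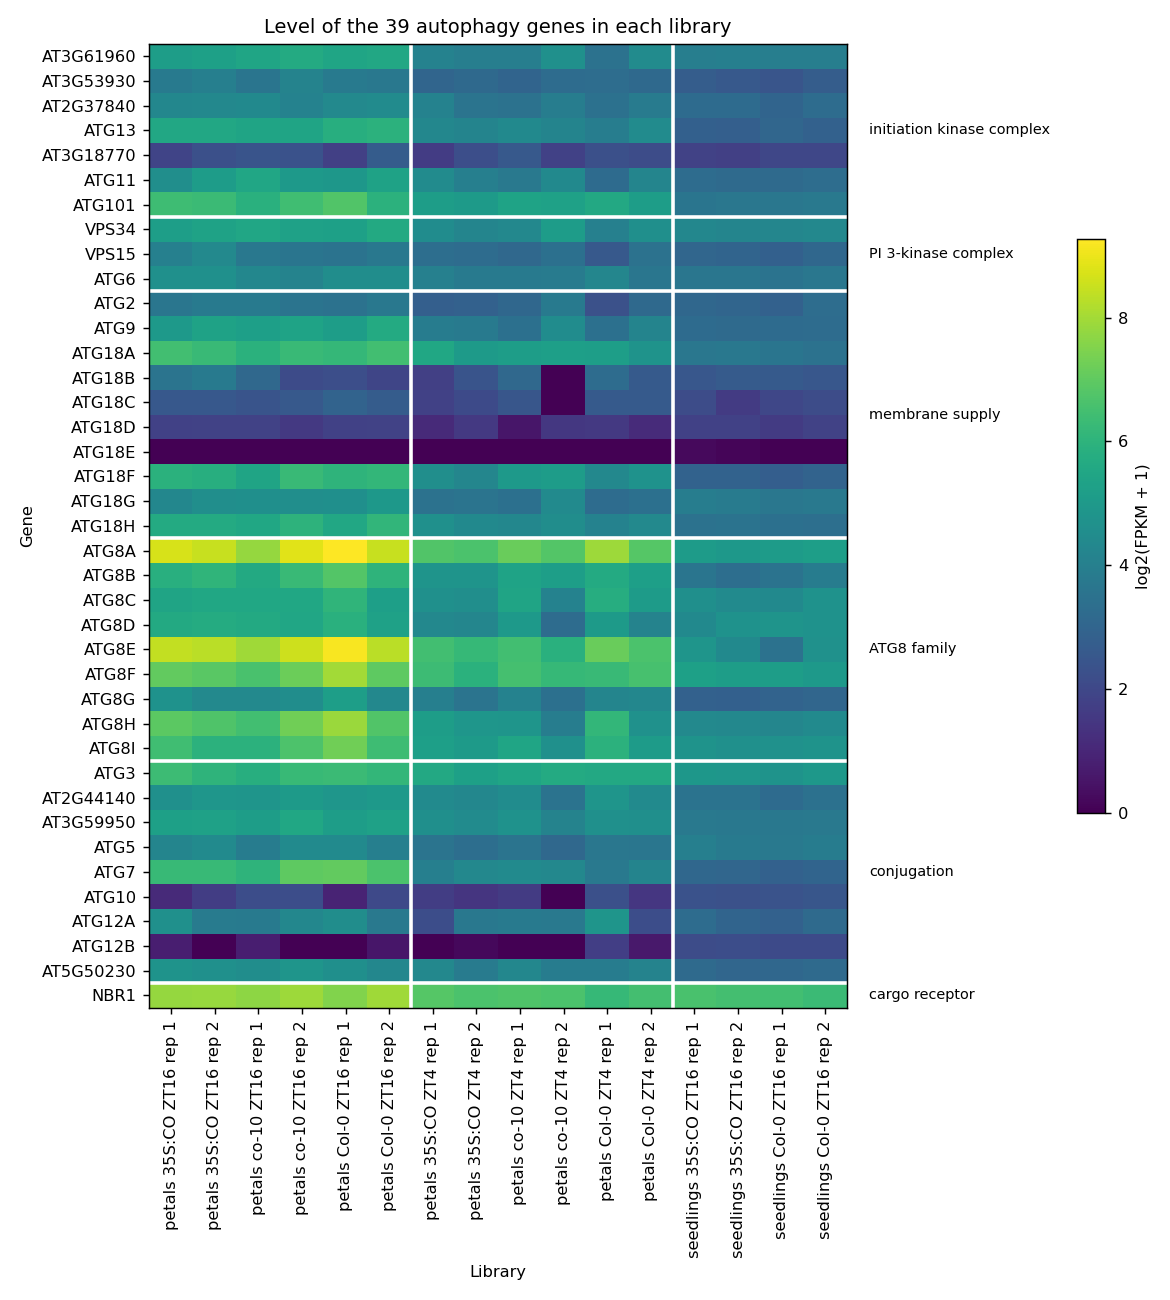
Level of each of the 39 autophagy genes as log2(FPKM + 1), by colour, in each of the 16 libraries (columns: petals at ZT16, petals at ZT4 and seedlings at ZT16, separated by white lines), with genes grouped by role. ATG8A, ATG8E and NBR1 are brightest in petals at ZT16, and ATG18E is at 0 in every petal library.

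The first question was whether the pathway's transcripts in petals differed between the end of the day and the morning. Averaged over the genotypes, 29 of the 37 tested genes were higher at ZT16 than at ZT4 and none was lower, by limma at a Benjamini-Hochberg adjusted p under 0.05, where 19.9% of all tested genes were higher and 13.7% lower. The difference was above 0 in all 37, with a median of 0.81 on the log2(FPKM + 1) scale, against 0.12 over all genes tested. In 22 of the 37, all 6 libraries at ZT16 lay above all 6 at ZT4, which held for 10.9% of all genes. Because 1 FPKM is added before the logarithm, the scale understates the change of low genes. The count stood at 22 to 31 when each library was left out in turn.

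**Figure D2:**
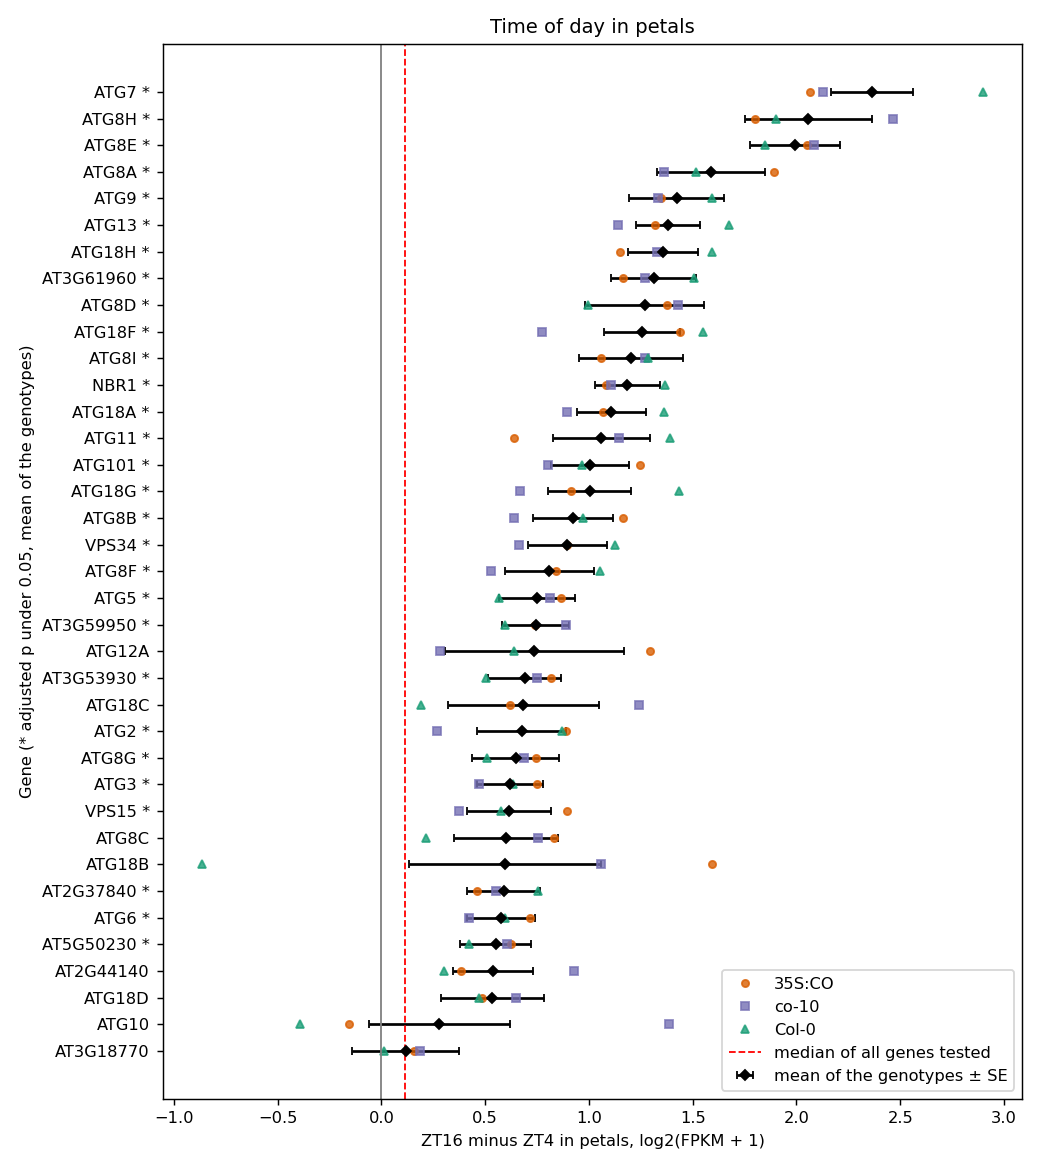
ZT16 minus ZT4 in petals for the 37 tested genes on the log2(FPKM + 1) scale, as the mean of the genotypes with its SE (diamonds) and in each genotype (coloured points). The means run from 0.12 for AT3G18770 to 2.36 for ATG7, beside a median of 0.12 over all genes tested (dashed line).

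ATG8 proteins coat the forming vesicle and recruit cargo, and 8 of the 9 ATG8 genes rose at ZT16. ATG8E stood at 343 and 319 FPKM in 35S:CO, 244 and 378 FPKM in co-10 and 579 and 318 FPKM in Col-0 at ZT16, against 86.4 and 72.5 FPKM in 35S:CO, 86.3 and 58.2 FPKM in co-10 and 142 and 98.9 FPKM in Col-0 at ZT4. Every ZT16 library exceeded every ZT4 library, and the mean difference was 1.99 ± 0.22 (SE, adjusted p = 6.37e-05). ATG8H reached 86.4 to 236 FPKM at ZT16 with a median of 113 FPKM, against 14.4 to 69.3 FPKM at ZT4 with a median of 27.9 FPKM, also without overlap and with a difference of 2.06 ± 0.31 (adjusted p = 0.000494). ATG8A ran from 222 to 617 FPKM at ZT16 (median 388) and from 100.1 to 241 FPKM at ZT4 (median 110.5), a difference of 1.59 ± 0.26 (adjusted p = 0.000927). Its 2 ranges overlapped through a single high ZT4 library, Col-0 replicate 1. ATG8D and ATG8I rose by 1.27 ± 0.29 and 1.20 ± 0.25, ATG8B by 0.92 ± 0.19, ATG8F by 0.81 ± 0.21 and ATG8G by 0.65 ± 0.21. ATG8C did not pass, at 36.3 to 66.2 FPKM at ZT16 and 16.5 to 53.9 FPKM at ZT4 (0.60 ± 0.25, adjusted p = 0.0861).

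Levels of the family spread widely within each group. ATG8A averaged 387 FPKM in 35S:CO, 345 in co-10 and 489 in Col-0 petals at ZT16, 103, 126 and 176.5 FPKM in the same genotypes at ZT4, and 31.3 in 35S:CO and 34.1 in Col-0 seedlings. ATG8E averaged 331 FPKM in 35S:CO, 311 in co-10 and 448 in Col-0 petals at ZT16, 79.4, 72.2 and 120.3 FPKM in the same genotypes at ZT4, and 23.9 in 35S:CO and 17.5 in Col-0 seedlings. ATG8F averaged 124.5 FPKM in 35S:CO, 121 in co-10 and 188 in Col-0 petals at ZT16, 69.8, 82.3 and 85.1 FPKM in the same genotypes at ZT4, and 36.3 in 35S:CO and 33.0 in Col-0 seedlings. These were the 3 highest ATG8 genes of every petal group but not of seedlings, where ATG8F, ATG8A and others lay close together. ATG8H averaged 112.5 FPKM in 35S:CO, 119 in co-10 and 171 in Col-0 petals at ZT16, 31.7, 21.0 and 47.0 FPKM in the same genotypes at ZT4, and 19.3 in 35S:CO and 19.3 in Col-0 seedlings. ATG8I averaged 73.4 FPKM in 35S:CO, 81.6 in co-10 and 117.5 in Col-0 petals at ZT16, 34.4, 33.3 and 47.5 FPKM in the same genotypes at ZT4, and 24.9 in 35S:CO and 25.6 in Col-0 seedlings. ATG8B averaged 61.2 FPKM in 35S:CO, 62.0 in co-10 and 87.0 in Col-0 petals at ZT16, 26.7, 38.6 and 42.9 FPKM in the same genotypes at ZT4, and 10.2 in 35S:CO and 12.2 in Col-0 seedlings. In these 3 genes the petal groups at ZT16 again had the highest means, and ATG8H in co-10 petals at ZT4 was near its seedling level. ATG8D averaged 49.8 FPKM in 35S:CO, 46.7 in co-10 and 48.3 in Col-0 petals at ZT16, 18.5, 20.0 and 24.5 FPKM in the same genotypes at ZT4, and 22.9 in 35S:CO and 26.1 in Col-0 seedlings. ATG8C averaged 43.1 FPKM in 35S:CO, 45.3 in co-10 and 51.2 in Col-0 petals at ZT16, 23.8, 29.3 and 43.4 FPKM in the same genotypes at ZT4, and 22.3 in 35S:CO and 23.0 in Col-0 seedlings. ATG8G averaged 22.4 FPKM in 35S:CO, 21.1 in co-10 and 27.1 in Col-0 petals at ZT16, 13.0, 13.1 and 17.9 FPKM in the same genotypes at ZT4, and 6.31 in 35S:CO and 7.08 in Col-0 seedlings. ATG8D stood out in that its ZT4 petal means lay below or within the range of its seedling libraries, and ATG8G was the lowest member of the family in every group. Each mean rests on 2 libraries, which for ATG8A in Col-0 petals at ZT16 were 617 and 361 FPKM.

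The make-up of the ATG8 pool also differed with time. ATG8E made up 26.4% to 28.0% of summed ATG8 FPKM in the 6 petal libraries at ZT16, 16.6% to 21.2% in the 6 at ZT4 and 5.54% to 13.4% in seedlings. ATG8A made up 25.5% to 32.7% at ZT16 and 23.9% to 32.4% at ZT4 in petals, ranges that overlap, and 15.6% to 17.8% in seedlings. Together these 2 genes held 53.5% to 59.8% in petals at ZT16, 43.9% to 51.5% in petals at ZT4 and 23.3% to 29.5% in seedlings. These shares are a description and were not tested.

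**Figure D3:**
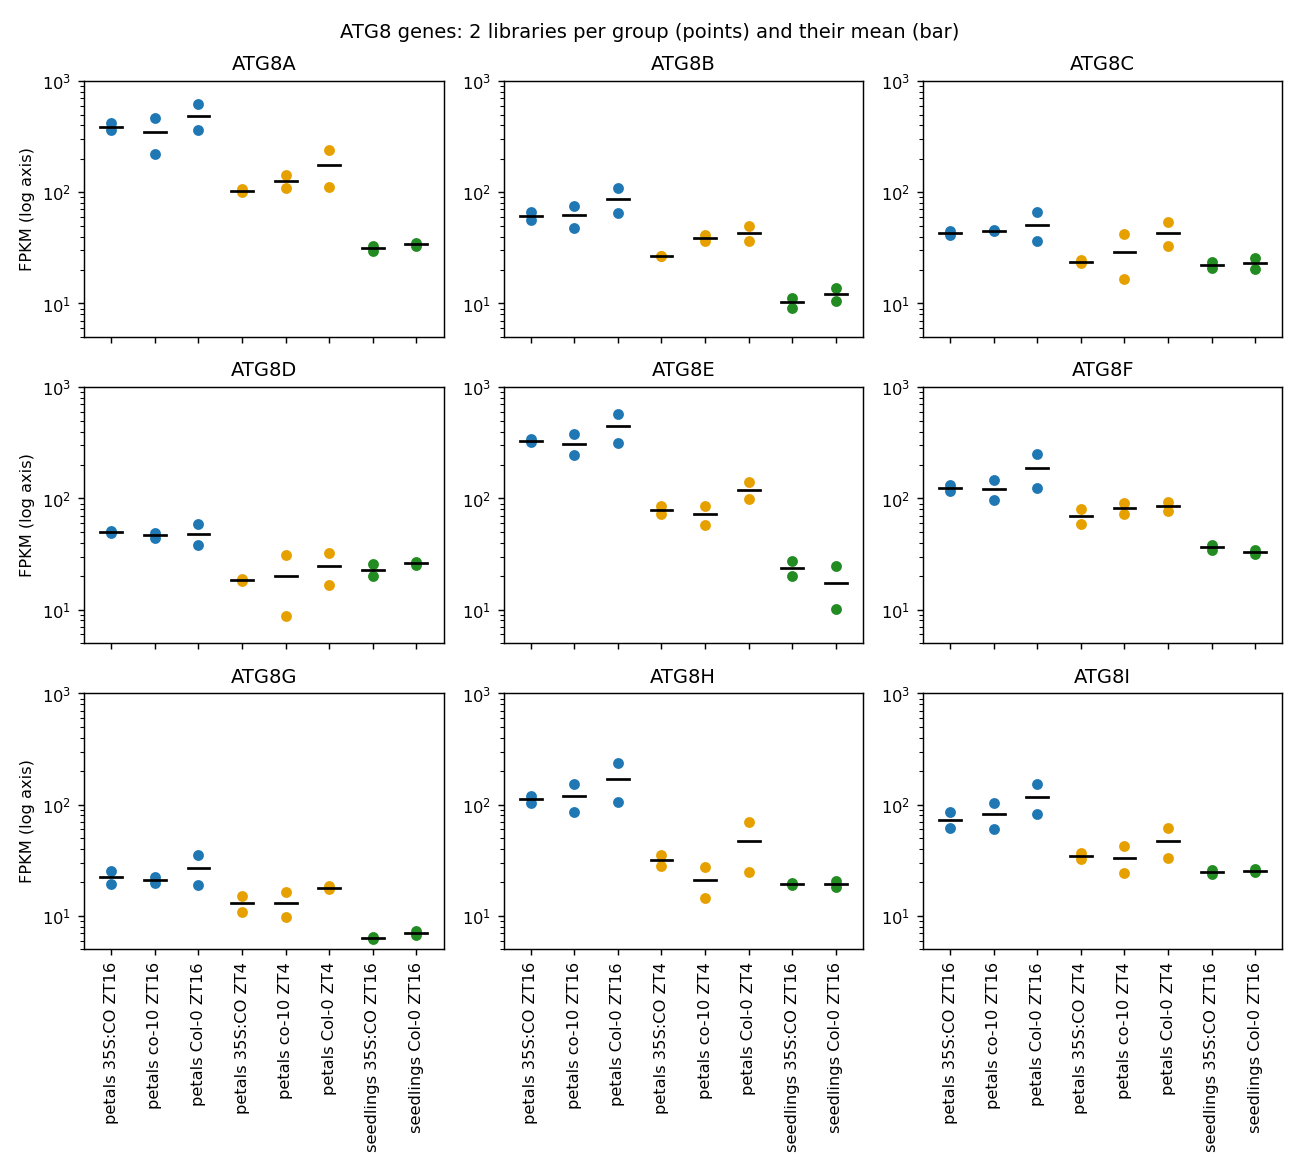
FPKM on a log axis of the 9 ATG8 genes in each group, with points for the 2 libraries and a bar for their mean; blue marks petals at ZT16, yellow petals at ZT4 and green seedlings. ATG8A and ATG8E reach the highest levels in petals at ZT16, 222 to 617 FPKM and 244 to 579 FPKM, and Col-0 ZT16 replicate 1 is the highest library of each gene.

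Among conjugation genes, ATG7, the E1-like enzyme that activates both ATG8 and ATG12, had the largest difference of all members. It stood at 74.5 and 74.4 FPKM in 35S:CO, 64.5 and 126 FPKM in co-10 and 132 and 100.3 FPKM in Col-0 at ZT16, against 15.2 and 19.1 FPKM in 35S:CO, 20.6 and 19.1 FPKM in co-10 and 12.3 and 17.2 FPKM in Col-0 at ZT4. The lowest ZT16 library exceeded the highest ZT4 library, and the difference was 2.36 ± 0.20 (adjusted p = 1.12e-05). ATG3, the E2-like enzyme for ATG8, rose by 0.62 ± 0.16, ATG5, which is joined to ATG12, by 0.75 ± 0.18, AT3G59950, of the C54 peptidase family that processes ATG8, by 0.74 ± 0.16 and AT5G50230 by 0.55 ± 0.17. ATG3 ran between 54.5 and 80.6 FPKM at ZT16, against 37.8 and 49.6 FPKM at ZT4, and ATG5 ran between 13.7 and 20.8 FPKM at ZT16, against 7.76 and 11.6 FPKM at ZT4. AT3G59950 ran between 34.4 and 45.0 FPKM at ZT16, against 16.9 and 25.4 FPKM at ZT4, and AT5G50230 ran between 18.4 and 27.8 FPKM at ZT16, against 13.5 and 19.0 FPKM at ZT4. In the first 3 of these 4 genes the times did not overlap. The other C54 gene, AT2G44140, was at 24.2 to 31.9 FPKM at ZT16 and 10.6 to 27.7 FPKM at ZT4 and did not pass (adjusted p = 0.0509). ATG12A (adjusted p = 0.21) and ATG10, the E2-like enzyme for ATG12 (adjusted p = 0.56), also did not pass. ATG12A ran between 12.4 and 24.1 FPKM at ZT16, against 3.55 and 27.3 FPKM at ZT4, while ATG10 ran between 0.875 and 3.54 FPKM at ZT16, against 0 and 3.83 FPKM at ZT4. ATG12B was too low to test in petals, at 0 to 0.726 FPKM at ZT16 and 0 to 2.29 FPKM at ZT4.

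In the initiation complex 6 of 7 genes rose. ATG13, the regulatory subunit whose phosphorylation couples the kinase to nutrient signalling, ran from 42.1 to 60.6 FPKM at ZT16 (median 46.1) and from 14.3 to 21.4 FPKM at ZT4 (median 17.9), with no overlap and a difference of 1.38 ± 0.15 (adjusted p = 7.5e-05). AT3G61960 followed with 34.5 to 49.9 FPKM at ZT16 and 10.4 to 24.0 FPKM at ZT4 (1.31 ± 0.20). The scaffold ATG11 rose by 1.06 ± 0.23 and ATG101 by 1.01 ± 0.19, and the kinases AT3G53930 and AT2G37840 by 0.69 ± 0.18 and 0.59 ± 0.18. ATG11 ran between 23.2 and 43.9 FPKM at ZT16, against 8.39 and 21.0 FPKM at ZT4, and ATG101 ran between 58.0 and 107 FPKM at ZT16, against 32.3 and 47.1 FPKM at ZT4. AT3G53930 ran between 11.3 and 16.8 FPKM at ZT16, against 6.86 and 8.92 FPKM at ZT4, and AT2G37840 ran between 16.28 and 21.26 FPKM at ZT16, against 10.09 and 16.25 FPKM at ZT4. None of these 4 overlapped between times, AT2G37840 by the smallest margin. AT3G18770 was low at both times, 2.42 to 5.42 FPKM at ZT16 and 2.13 to 4.97 FPKM at ZT4, and did not pass (0.12 ± 0.26).

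The 3 members placed in the lipid kinase complex here, which are not all of its subunits, rose. These were the catalytic subunit VPS34 by 0.89 ± 0.19, its partner VPS15 by 0.62 ± 0.20 and ATG6, the plant Beclin, by 0.58 ± 0.16. VPS34 ran between 35.7 and 49.2 FPKM at ZT16, against 15.5 and 33.6 FPKM at ZT4. VPS15 ran between 10.6 and 19.7 FPKM at ZT16, against 5.06 and 10.3 FPKM at ZT4, and ATG6 ran between 16.9 and 24.0 FPKM at ZT16, against 11.4 and 17.9 FPKM at ZT4. VPS34 and VPS15 did not overlap between times, while ATG6 did. Of the membrane supply group 6 of the 9 tested genes rose. ATG9, the membrane protein of the seed vesicles, ran from 31.3 to 49.4 FPKM at ZT16 (median 38.1) and from 9.70 to 21.9 FPKM at ZT4 (median 13.3), a difference of 1.42 ± 0.23 (adjusted p = 0.000817) without overlap. Within the ATG18 family, whose proteins bind phosphatidylinositol 3-phosphate, ATG18H rose by 1.36 ± 0.17, ATG18F by 1.26 ± 0.18, ATG18A by 1.11 ± 0.17 and ATG18G by 1.00 ± 0.20. ATG18H ran between 44.8 and 67.4 FPKM at ZT16, against 16.3 and 24.1 FPKM at ZT4, and ATG18F ran between 42.1 and 76.4 FPKM at ZT16, against 18.2 and 33.8 FPKM at ZT4. ATG18A ran between 59.8 and 87.9 FPKM at ZT16, against 26.1 and 45.5 FPKM at ZT4, and ATG18G ran between 18.6 and 29.7 FPKM at ZT16, against 8.58 and 20.7 FPKM at ZT4. Of these 4, ATG18G alone overlapped between times. The low members ATG18B, ATG18C and ATG18D, at 0 to 12.7 FPKM over the 12 petal libraries, did not pass. ATG2, which transfers lipids, rose by 0.68 ± 0.21, and its libraries overlapped. ATG2 ran between 10.4 and 13.3 FPKM at ZT16, against 3.93 and 12.7 FPKM at ZT4. NBR1, the receptor for ubiquitinated cargo, ran from 180.7 to 244 FPKM at ZT16 (median 225) and from 72.3 to 112 FPKM at ZT4 (median 99.7), a difference of 1.19 ± 0.16 (adjusted p = 0.000232). NBR1 averaged 225 FPKM in 35S:CO, 221 in co-10 and 212 in Col-0 petals at ZT16, 106, 102 and 81.3 FPKM in the same genotypes at ZT4, and 92.4 in 35S:CO and 83.5 in Col-0 seedlings. Its ZT4 petal means lay near its seedling means.

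Within single genotypes, 5 genes rose in 35S:CO, 8 in co-10 and 14 in Col-0, where 3.02%, 8.51% and 8.56% of all tested genes rose. The 5 in 35S:CO were ATG7 (2.06 ± 0.34, adjusted p = 0.00873), ATG8E (2.05 ± 0.37, adjusted p = 0.0142), ATG8A (1.89 ± 0.45, adjusted p = 0.0425), ATG18F (1.44 ± 0.31, adjusted p = 0.0296) and ATG13 (1.32 ± 0.27, adjusted p = 0.0217). Without any 1 of the 4 libraries of 35S:CO petals, 0 or 1 of these 5 passed. The 8 in co-10 were ATG8H (2.47 ± 0.53), ATG7 (2.13 ± 0.34), ATG8E (2.08 ± 0.37), ATG9 (1.33 ± 0.40), ATG18H (1.33 ± 0.29), AT3G61960 (1.27 ± 0.35), ATG13 (1.14 ± 0.27) and NBR1 (1.11 ± 0.27), with adjusted p from 0.00275 for ATG7 to 0.0483 for ATG9. With each of the 12 petal libraries left out in turn, ATG7 and ATG8E passed every time in co-10, while ATG9 (0.785 to 1.88) and AT3G61960 (0.92 to 1.61) missed the threshold in 9 of 12 fits and passed only without Col-0 ZT4 replicate 1, Col-0 ZT4 replicate 2 or co-10 ZT4 replicate 2. Both were lowest without co-10 ZT4 replicate 1. The 5 largest in Col-0 were ATG7 (2.90 ± 0.34), ATG8H (1.90 ± 0.53), ATG8E (1.85 ± 0.37), ATG13 (1.68 ± 0.27) and ATG18H (1.59 ± 0.29). Of these, ATG8H (1.18 to 2.63) missed the threshold in 6 of 12 such fits: without Col-0 ZT4 replicate 2 (1.18), without Col-0 ZT16 replicate 1 (1.32) and without any 1 of the 4 35S:CO libraries (1.90 each, adjusted p = 0.0513 to 0.0526). ATG8E missed it without the same 2 Col-0 libraries (1.59 and 1.42). ATG7, ATG8E and ATG13 rose in all 3 genotypes. The medians over the 37 genes were 0.90 in 35S:CO, 0.81 in co-10 and 0.97 in Col-0, and in 30 genes both ZT16 libraries lay above both ZT4 libraries in each genotype, which held for 15.7% of all tested genes.

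These counts depended on single libraries. In 35S:CO the count was 0 without ZT16 replicate 1, ZT16 replicate 2 or ZT4 replicate 1 and 1 without ZT4 replicate 2, and it was 8 without any single one of the 4 co-10 libraries. In co-10 it was 2 without ZT16 replicate 2, 5 without ZT4 replicate 2 and 14 without ZT4 replicate 1. In Col-0 it was 6 without ZT16 replicate 1, 8 without ZT16 replicate 2, 7 without ZT4 replicate 1 and 9 without ZT4 replicate 2. The difference between genotypes was itself tested: no gene passed for the interaction of time with 35S:CO or with co-10, and none had an unadjusted p under 0.05, where 0.0224% of all genes passed in each. The smallest p belonged to ATG18B for 35S:CO (2.46 ± 1.13, 95% interval -0.04 to 4.95, adjusted p = 0.753) and to ATG10 for co-10 (1.78 ± 0.83, interval -0.05 to 3.61, adjusted p = 1). For ATG7 the interaction with 35S:CO was -0.84 ± 0.48 (interval -1.89 to 0.22).

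Regulators and other factors of the pathway were read beside the core. TOR represses autophagy and SnRK1 promotes it. Of 6 genes for their subunits, 1 rose at ZT16, RAPTOR1A (0.68 ± 0.22), with a list median of 0.47. Over all genes tested in this comparison 19.9% rose and 13.7% fell, so 1 of 6 is near that share. Of 16 other factors and receptors 9 rose and none fell, with a median of 0.51, with the largest differences in AT1G77890 (1.56 ± 0.25, 18.5 FPKM at ZT16 and 5.94 FPKM at ZT4), TSPO (interval 0.35 to 1.86, adjusted p = 0.0298) and AT3G43230 (adjusted p = 0.000917, 124 FPKM at ZT16 and 57.0 FPKM at ZT4). TSPO, a receptor that delivers aquaporins to autophagy, was at 0.377 and 0 FPKM in 35S:CO, 0.522 and 6.03 FPKM in co-10 and 2.27 and 1.47 FPKM in Col-0 at ZT16, against 0 to 0.150 FPKM at ZT4. In 35S:CO the times overlapped. TSPO reached 1 FPKM in petals only at ZT16, so it entered the test through the time at which it was then called higher. Its place among the 9 is therefore a description and no independent support. The TSPO difference was 0.74 (adjusted p = 0.0392) without co-10 ZT16 replicate 2, the library at 6.03 FPKM, and its call was lost in 6 of 12 fits that each left out 1 petal library, an alternative chosen after seeing the data. Of 8 senescence markers 5 rose: the protease gene SAG12 (2.99 ± 0.36), SAG13 (2.96 ± 0.31) and the transcription factor genes ANAC092 (1.79 ± 0.33), NAP (1.06 ± 0.23) and WRKY53 (0.93 ± 0.31). SEN4 fell (-1.14 ± 0.21), and SAG29 and NYE1 did not pass. With each of the 12 petal libraries left out in turn, RAPTOR1A ran from 0.61 to 0.75 and WRKY53 from 0.62 to 1.23. Both calls were lost in most of these fits, as were every pollen call except that of PPME1 and several calls among the other factors. The calls of AT1G77890, AT3G43230, ATI2 and EXO70B1 held in every fit. Other tissue markers also moved with time. The pollen list, of which 3 of 4 genes rose, summed to 864 to 3318 FPKM at ZT16 and 577 to 1721 FPKM at ZT4. The 4 mesophyll genes, which all fell as the mean of the genotypes, summed to 460.7 to 2625 FPKM at ZT16 and 1976 to 3826 FPKM at ZT4. In 35S:CO petals the mesophyll gene LHCB2.3 went the other way, at 81.6 and 46.1 FPKM at ZT16, against 25.8 and 22.0 FPKM at ZT4. The 4 petal identity genes, of which 2 fell, summed to 881.5 to 1646 FPKM at ZT16 and 1561 to 2253 FPKM at ZT4, while the tapetum genes summed to 0.979 FPKM or less and the carpel and ovule genes to 10.6 FPKM or less. Ribosomal RNA loci held 3.82% to 38.8% of summed FPKM at ZT16 (median 11.6%) and 19.1% to 48.8% at ZT4 (median 24.2%). The part of these markers and of ribosomal RNA in the result was not tested.

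A second question was how petals compared with seedlings at the same hour. At ZT16, 26 of 38 tested genes were higher in petals and 1 was lower in 35S:CO, and 27 were higher and 1 lower in Col-0. The 1 lower gene was ATG12B in both, which was tested only because of its seedling levels. Over all genes the split ran the other way, with 18.2% higher and 43.1% lower in 35S:CO and 18.9% higher and 45.5% lower in Col-0. The median of the 38 genes was 1.27 in 35S:CO, against -0.65 over all genes, and 1.34 in Col-0, against -0.74 over all genes. In 25 genes the call was higher in both genotypes, and 24 of those were also higher at ZT16 than at ZT4 in petals, 2 comparisons that share the ZT16 petal libraries. No share of all genes stands beside these joint counts, which are a description only.

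**Figure D4:**
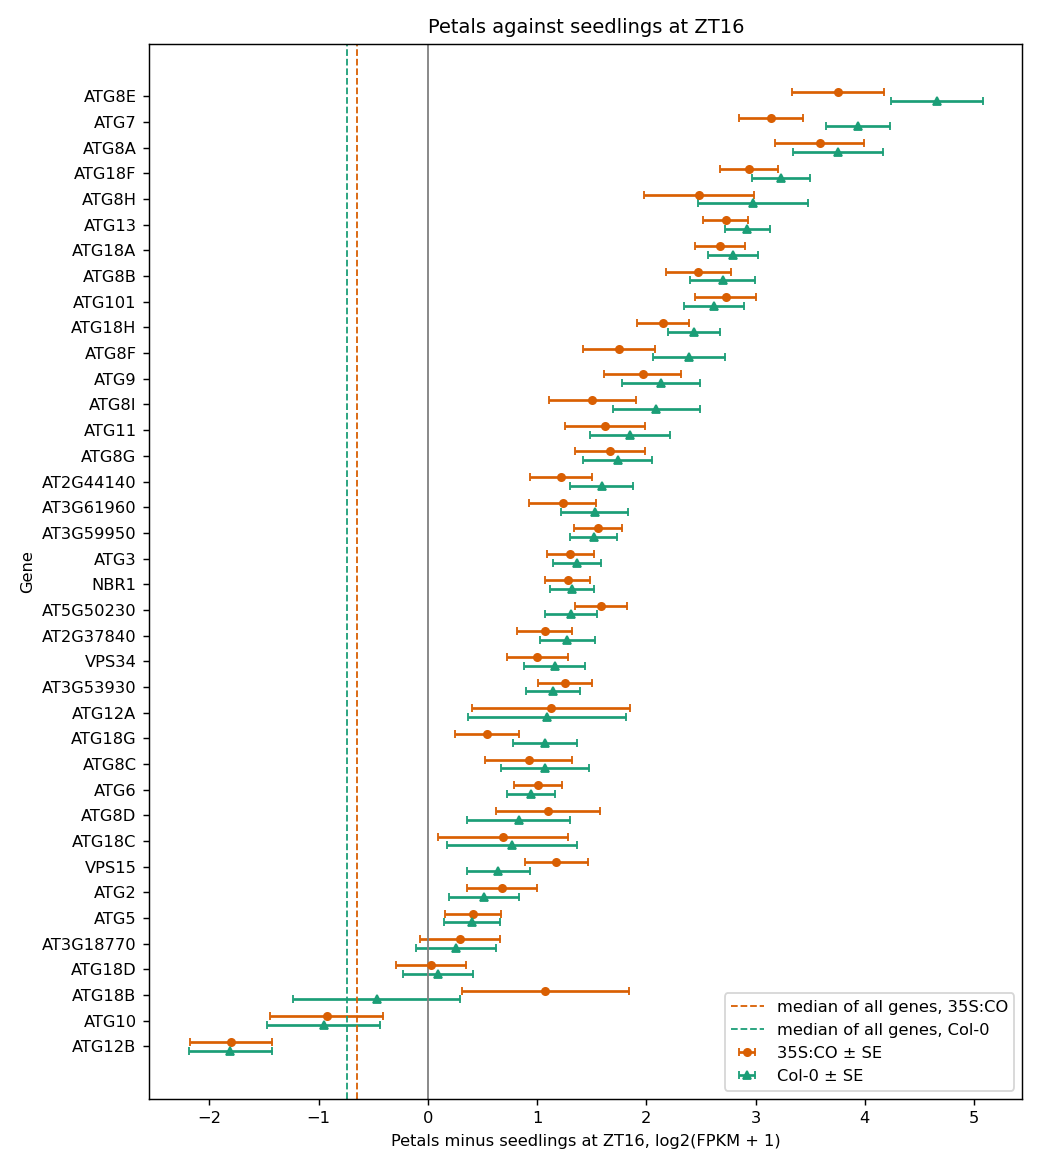
Petals minus seedlings at ZT16 for the 38 tested genes on the log2(FPKM + 1) scale, with SE, in 35S:CO (circles) and Col-0 (triangles). Most genes lie to the right of the medians of all genes tested, -0.65 and -0.74 (dashed lines), ATG8E farthest, and ATG12B is lowest at -1.80 and -1.81.

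ATG8E differed most, with 343 and 319 FPKM in petals, against 27.5 and 20.3 FPKM in seedlings of 35S:CO (3.75 ± 0.42, adjusted p = 1.69e-05), and 579 and 318 FPKM in petals, against 10.2 and 24.8 FPKM in seedlings of Col-0 (4.66 ± 0.42, adjusted p = 2.58e-06). ATG7 had 74.5 and 74.4 FPKM in petals and 7.63 and 7.44 FPKM in seedlings of 35S:CO (3.14 ± 0.29), and 132 and 100.3 FPKM in petals and 6.28 and 6.92 FPKM in seedlings of Col-0 (3.94 ± 0.29). Petal and seedling libraries of both genes lay far apart. ATG8A differed by 3.59 ± 0.41 in 35S:CO, above ATG7, and by 3.75 ± 0.41 in Col-0, below ATG7. ATG18F (2.94 ± 0.26 in 35S:CO and 3.23 ± 0.26 in Col-0) was the fourth in each genotype, and the fifth was ATG13 in 35S:CO (2.73 ± 0.21) and ATG8H in Col-0 (2.97 ± 0.50). By role, the call was higher in 7 of 9 ATG8 genes in 35S:CO and 8 in Col-0, in 6 of 7 initiation genes and 5 of 9 conjugation genes in each genotype, in 3 and 2 of the 3 lipid kinase genes, and in 4 and 5 of 9 membrane supply genes. NBR1, already abundant in seedlings, was higher by 1.28 ± 0.20 in 35S:CO and 1.32 ± 0.20 in Col-0.

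ATG12B, a gene for the ubiquitin-like protein that is joined to ATG5, was the exception. Among petals it reached 1 FPKM only in Col-0 ZT4 replicate 1. It thus passed the filter only through seedlings, the tissue where it was higher, so its call is a description and no independent support. It was at 0.704 and 0 FPKM in petals, against 3.49 and 3.61 FPKM in seedlings of 35S:CO (-1.80 ± 0.38, adjusted p = 0.00163), and at 0 and 0.461 FPKM in petals, against 3.26 and 3.22 FPKM in seedlings of Col-0 (-1.81 ± 0.38, adjusted p = 0.00144). Its paralog ATG12A was at 24.1 and 13.4 FPKM in petals, against 8.61 and 6.86 FPKM in seedlings of 35S:CO, and at 22.3 and 12.4 FPKM in petals, against 6.40 and 8.28 FPKM in seedlings of Col-0, with no overlap in either, but did not pass (adjusted p = 0.2 and 0.208). ATG10, which joins ATG12 to ATG5, was at 1.17 and 2.20 FPKM in petals, against 4.06 and 3.97 FPKM in seedlings of 35S:CO, and also did not pass (adjusted p = 0.141).

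The size of these differences depended on the scaling. With quantile normalization, which moved that median to -0.06 in 35S:CO and -0.07 in Col-0, 35 and 34 members were higher and none lower, beside 26.5% of all genes higher and 29.8% lower in 35S:CO and 27.5% higher and 31.5% lower in Col-0. ATG12B then missed the threshold, at -0.85 ± 0.35 in 35S:CO (adjusted p = 0.0549) and -0.66 ± 0.35 in Col-0 (adjusted p = 0.123). For the interaction of 35S:CO with tissue no member passed and none had an unadjusted p under 0.05, where 1.55% of all genes passed. The interactions of ATG7, -0.79 ± 0.41 (95% interval -1.70 to 0.12), and ATG8E, -0.91 ± 0.60 (interval -2.22 to 0.41), had the smallest p.

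Of the 6 TOR and SnRK1 genes, KIN10, a catalytic subunit of SnRK1, was higher in 35S:CO petals than in seedlings (0.73 ± 0.28), and its paralog KIN11 was lower in Col-0 (-0.72 ± 0.26). Of the 16 other factors 10 were higher in 35S:CO and 9 were higher and 1 lower in Col-0. Over all genes, 18.2% were higher and 43.1% lower in 35S:CO, and 18.9% higher and 45.5% lower in Col-0. The largest were AT3G43230 (2.95 ± 0.26 in 35S:CO and 2.82 ± 0.26 in Col-0), AT1G77890 (1.93 ± 0.38 and 2.01 ± 0.38) and ATI2, an ATG8-binding protein (1.86 ± 0.30 and 1.79 ± 0.30), and the 1 lower was AT4G34660 (-0.65 ± 0.21). Of 8 senescence markers 7 were higher in petals of each genotype, led by SAG12, at 1782 FPKM in 35S:CO petals and 2360 FPKM in Col-0 petals and listed at 0 in seedlings. NAP (7.93 ± 0.38) and NYE1 (5.27 ± 0.49) followed in 35S:CO, and NAP (8.79 ± 0.38) and SAG13 (7.23 ± 0.52) in Col-0. NAP, a transcription factor gene, was at 472 FPKM in petals and 0.902 FPKM in seedlings of 35S:CO and at 736 FPKM in petals and 0.604 FPKM in seedlings of Col-0. SAG12 and NAP passed the filter only through petals, the tissue where they were higher. Their calls are therefore a description and no independent support. All 4 pollen markers were higher in petals and all 4 mesophyll markers lower in both genotypes. The pollen markers VGD1, PPME1 and ADF7 were listed at 0 in seedlings and passed the filter only through petals. Their calls are therefore a description and no independent support. Mesophyll markers summed to 460.7 to 2625 FPKM in petals at ZT16 and 12400 to 13950 FPKM in seedlings. Root markers summed to 4.64 to 9.13 FPKM in petals at ZT16 and 41.1 to 72.0 FPKM in seedlings. The part of these tissue markers in the result was not tested.

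The third question was whether the pathway responded to CO. No member passed in any of the 7 genotype comparisons by limma, and in each of them 0 members had an unadjusted p under 0.05. Of all genes, 1.14% passed between 35S:CO and Col-0 petals at ZT16, 0.106% at ZT4, 0.0224% between co-10 and Col-0 petals at either time, 0.929% between 35S:CO and co-10 petals at ZT16 and 0.319% at ZT4. Between 35S:CO and Col-0 seedlings 11.7% of all genes passed, and the 38 tested members had a median difference of 0.02 with a range of -0.23 to 0.53. The intervals of the single members were wide in petals, where their 95% bounds ran from -1.66 to 3.35 between 35S:CO and Col-0 at ZT16, and from -0.75 to 1.82 in seedlings, so these data leave sizeable differences possible.

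**Figure D5:**
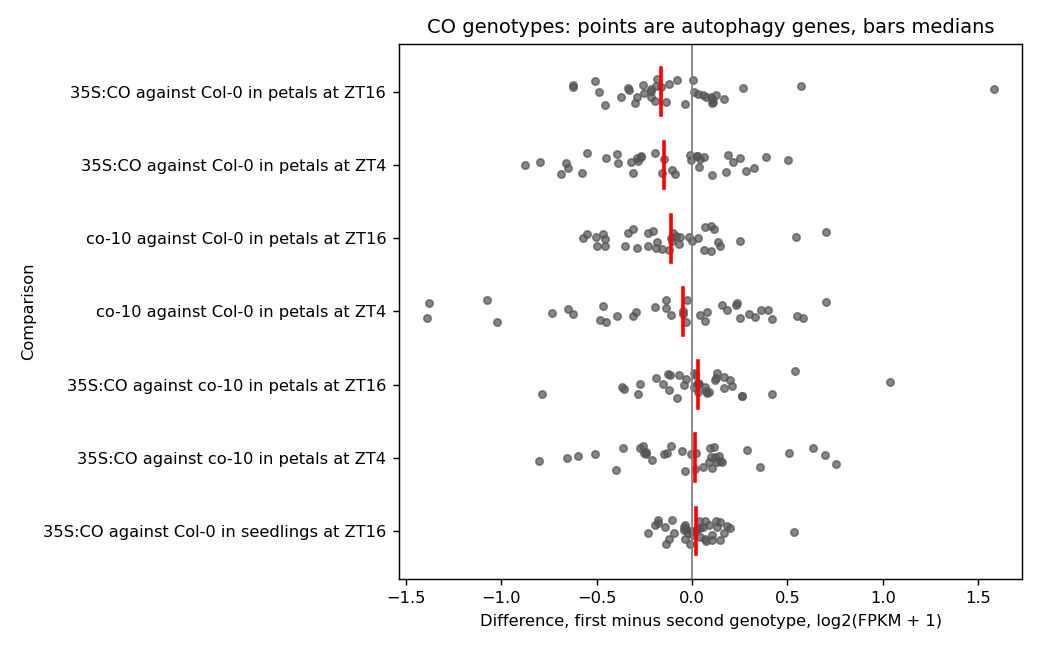
Differences between CO genotypes for each tested autophagy gene on the log2(FPKM + 1) scale (points, 37 genes in petals and 38 in seedlings) with the median of each comparison (red bar). The medians lie between -0.16 and 0.03, and seedlings show the narrowest spread, -0.23 to 0.53.

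The members with the smallest p show the size of what was seen. ATG18B was at 10.8 and 12.7 FPKM in 35S:CO petals at ZT16, against 3.67 and 2.86 FPKM in Col-0 (1.58 ± 0.80, interval -0.18 to 3.35, adjusted p = 0.573). ATG7 was at 74.5 and 74.4 FPKM in 35S:CO petals, against 132 and 100.3 FPKM in Col-0 (-0.62 ± 0.34, interval -1.37 to 0.12). In both genes the 35S:CO libraries did not overlap the Col-0 libraries, yet neither gene passed. Between 35S:CO and Col-0 petals at ZT4 they were ATG8B (-0.65 ± 0.33) and ATG8C (-0.80 ± 0.43), between co-10 and Col-0 ATG18C (-1.39 ± 0.63) and ATG8E (-0.73 ± 0.37) at ZT4 and ATG13 (-0.46 ± 0.27) and ATG8F (-0.57 ± 0.37) at ZT16. Between 35S:CO and co-10 they were ATG18F (-0.65 ± 0.31) and ATG2 (-0.60 ± 0.37) at ZT4 and VPS15 (0.54 ± 0.35) and ATG6 (0.42 ± 0.28) at ZT16. In seedlings they were ATG18G, at 14.4 and 13.5 FPKM in 35S:CO, against 11.7 and 12.4 FPKM in Col-0 (0.20 ± 0.08, adjusted p = 0.19), and AT2G44140 (0.18 ± 0.10). Without co-10 ZT4 replicate 1, ATG18C (-2.63 ± 0.41) and ATG18B (-2.95 ± 0.53) passed between co-10 and Col-0 at ZT4, ATG18C (1.94 ± 0.41) between 35S:CO and co-10, and ATG18B (3.50 ± 0.69) for the interaction of co-10 with time. The co-10 library then left at ZT4 is the shallow one in which both genes are listed at 0. Without that library in place of replicate 1, ATG18C differed by -0.14 ± 0.40 between co-10 and Col-0 at ZT4 and did not pass. Without Col-0 replicate 2, ATG8E passed in seedlings (1.13 ± 0.20), at 27.5 and 20.3 FPKM in 35S:CO, against 10.2 FPKM in the Col-0 library kept and 24.8 FPKM in the one left out.

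The ATG8 family lay mostly below Col-0 in the other genotypes, without any call. In petals at ZT16 the difference was below 0 in 8 of 9 genes in 35S:CO (median -0.37) and in 9 of 9 in co-10 (median -0.47). At ZT4 it was below 0 in 9 of 9 in 35S:CO (median -0.45) and in 9 of 9 in co-10 (median -0.47), with the same counts under quantile and median-of-ratios scaling. Of all tested genes, 49.7% in 35S:CO and 39.6% in co-10 were below 0 at ZT16, and 55.9% in 35S:CO and 55.6% in co-10 at ZT4, with medians from -0.07 to 0.08. The comparisons at a time share their 2 Col-0 libraries. Summed ATG8 FPKM at ZT16 was 1268 and 1142 in 35S:CO, 872 and 1434 in co-10 and 2106 and 1148 in Col-0, and at ZT4 430.5 and 371 in 35S:CO, 521 and 350.4 in co-10 and 744 and 466 in Col-0. In both sets Col-0 replicate 1 was the highest library and Col-0 replicate 2 lay within the range of the other genotypes.

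In the same comparisons, the senescence markers SAG29 (4.61 ± 0.27), SAG13 (3.87 ± 0.27) and SEN4 (2.10 ± 0.14) were higher and TSPO lower (-0.94 ± 0.20) in 35S:CO than in Col-0 seedlings. SAG29 was higher in 35S:CO than in co-10 petals at ZT16 (2.42 ± 0.39), and the interaction of 35S:CO with tissue was below 0 for SAG13 (-4.10 ± 0.74) and SAG29 (-2.78 ± 0.53). No gene of the TOR and SnRK1 list passed in a genotype comparison. Of the tissue markers, 2 of the 4 mesophyll genes and 3 of the 4 petal identity genes were higher in 35S:CO than in Col-0 seedlings, and 2 of the 4 mesophyll genes were higher in 35S:CO than in Col-0 petals at ZT16. Of all genes, 11.7% passed in either direction between these seedlings and 1.14% between these petals. AP3, PI, SEP1 and TSPO passed the filter of the seedling fit only through the genotype in which they were higher. Their calls between seedlings are therefore a description and no independent support.

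Across all 16 comparisons, interactions included, 6 of the 38 tested members were called in none (AT3G18770, ATG18B, ATG18C, ATG18D, ATG10 and ATG12A), 15.8%, against 21.1% of all loci tested in at least 1 comparison. ATG18E was too low to test in any. Sharing of reads between members is limited at the level of sequence, since 5 members share any stretch of 50 bases with another gene and the highest share was 0.74%, for ATG18D. An annotated gene on the opposite strand overlaps 14 members, by 30.1% of AT2G44140, 15.7% of ATG5, 11.8% of VPS15, 11.7% of ATG8I and 11.0% of ATG11 and less in the rest. The kit keeps the strand, but the setting used for counting is not given in the sources used here, so levels of those genes are less certain.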

How the data were processed

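RNA was sequenced with a stranded mRNA kit in 16 libraries, per the labels' protocols. The authors' deposited table gives FPKM for 32833 loci, with 1 column per library; the file names no unit, which was read from values that are not whole and whose sums differ. HISAT2, FastQC and TAIR10 are named in the submitters' processing notes; the quantifier is not given in the sources used here. FPKM hold no counts, so depth was estimated from the steps of low values: 28.0% to 50.1% of these lay within 0.02 of a whole multiple, against 4% if spread evenly, and no counting interval can be given.

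Values were taken as log2(FPKM + 1), and every locus that reached 1 FPKM in 2 or more of the libraries fitted went into limma 3.58.1 (R 4.3.3, trended robust variance, statmod 1.5.0), after a check on simulated data. The petal fit held 12 libraries, the seedling fit 4, and petals against seedlings all 16. Tests were two-sided and adjusted by Benjamini-Hochberg over all loci of a fit, with calls at an adjusted p under 0.05. The p-values rest on the spread between replicate libraries, taken as 1 value per locus over all groups of a fit. That value is drawn toward the spread of loci of similar level. Named by rule were every called member where 8 or fewer were called, otherwise the 5 largest each way, and with no call the 2 smallest p; of the other lists, every called gene where 6 or fewer were called, otherwise the 3 largest. The members and lists were chosen with earlier results of these data known. Gene positions, promoters and overlaps come from TAIR10.1 (RefSeq), in which all 39 members matched. Alternatives tried were another pseudocount, no filter, 2 other scalings, a replicate block, 1 fit over all libraries and each library left out.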

Additional observations from a re-analysis of the deposited data

How the results depend on the processing

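No named result changed direction under any alternative. The counts of called members stayed within 1.5 times under a pseudocount of 0.1, no filter and quantile normalization. Of the others, the ZT16 to ZT4 count in 35S:CO petals (5) became 3 with median-of-ratios scaling, 8 with the replicate block and 12 in 1 fit over all 16 libraries, and that in co-10 (8) became 13 in that 1 fit; the cause was not tested. The labels do not say whether replicate numbers pair samples. Over 15 pairs of petal groups the correlation of same-numbered deviations ran from -0.302 to 0.228, over 0.1 in 5, and was -0.016 in seedlings. Such values cannot settle whether replicates share a batch. With the replicate block 31 members rose at ZT16 as the mean of the genotypes, 29 and 28 were called in petals against seedlings in 35S:CO and Col-0, and 0 in each genotype comparison. Leaving out each library gave 0 to 8 for time in 35S:CO, 2 to 14 in co-10, 6 to 14 in Col-0 and 22 to 31 as their mean, 26 to 32 and 27 to 30 for petals against seedlings in 35S:CO and Col-0, 0 to 2 for co-10 against Col-0 at ZT4, 0 to 1 for 35S:CO against co-10 at ZT4, for 35S:CO against Col-0 in seedlings and for the interaction of co-10 with time, and 0 for the rest. Where that leaves a group with 1 library, it is assumed to vary like the others. With 2 libraries a group and 5220000 to 22040000 estimated reads in petals, the low members ATG18B, ATG18C and ATG10 have wide intervals.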
